A study of Zea mays with 18 samples.

Results

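The cDNA clones of a maize array annotated Asn1 (asparagine synthetase by its name), cgs1 (cystathionine gamma-synthase) and HMT-3 (homocysteine methyltransferase) were followed between opaque2 (o2) and wild-type endosperm. They were chosen by symbol: each clone whose symbol or synonym in the platform annotation or the gene table is Asn1, cgs1 or HMT-3. The rule found 3 clones of 3 genes, 1 clone each, among 489 named clones (370 genes) and 7466 clones in all. The tissue was immature endosperm of Zea mays taken 14 days after pollination, and polyA RNA of an o2 sample and a wild-type sample was hybridised together on 2-colour arrays. There were 3 comparisons: o2 B46 against wild-type B46, o2 M14 against wild-type M14 (both single lines), and a pool of 8 o2 lines against a pool of 8 wild-type lines (mixed). Each comparison had 3 independent sample pairs, and each pair was put on 2 arrays with the dyes exchanged, so that there were 18 arrays and 9 replicates. The o2 allele, the lines in the pools, and how many ears or plants each sample held are not given in these sources. The labels call the sample pairs independent but do not say what they were, so p-values measure only the spread between these pairs.

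The protein made from o2 is an endosperm transcription factor of the bZIP kind that activates genes of zein storage proteins and of several metabolic enzymes. Its mutants make less of the zeins and more of other proteins, and their kernels hold more lysine. Asparagine synthetase moves an amide nitrogen from glutamine to aspartate. Aspartate is also the start of the pathway that leads to lysine, threonine and methionine. Cystathionine gamma-synthase takes the first step that commits carbon to methionine, and homocysteine methyltransferase makes methionine from homocysteine with a methyl group from S-methylmethionine.

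The name of 1 clone was not settled within the gene table. The clone taken as Asn1 carries the symbol and gene identifier of LOC606433. In the table Asn1 is a synonym of that gene, beside GRMZM2G154182 and nac4, and nac is the symbol of the NAC family of transcription factors. The synonyms AS, AsnS1 and, in lower case, asn1 belong to LOC542435, AsnS2 to LOC100192349 and AsnS3 to LOC100192350, and none of these 3 genes has a named clone on the array. The clone is therefore called Asn1 (LOC606433) here, with no enzyme activity given to it, and no named clone stood for an asparagine synthetase identified by the AsnS symbols. The name cgs1 stands for LOC541650 in the gene table, and HMT-3 kept its platform symbol.

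All values are log ratios of o2 over wild type, centred on the median of the array, so a negative value is lower in o2. The base of the logarithm is unknown, and values are in log units. The direction is not settled. On every array the deposited ratio was taken to be wild type over o2, because the design text names the wild type first, and was multiplied by -1. Over all clones, the 72 pairs of arrays with the same labelled dye orientation correlated at a median r of 0.061, 25 of them below 0. The lowest was r = -0.34, between M14 replicate 1 and mixed replicate 1 with wild type on Cy5, and it was the only one under -0.3. The 2 arrays within a dye swap correlated at between -0.35 and -0.018. On the reading used here, the arrays of a pair thus tended to deviate in opposite directions over all clones. Turned by the labelled dyes, each of these r values would change sign. Both arrays of mixed replicates 1 and 2 correlated below 0 on average with the B46 and M14 arrays of their own labelled orientation (mean r from -0.20 to -0.011) and above 0 with those of the other (0.21 to 0.24). The labelled dyes of these 2 replicates are therefore in doubt, and with them the mixed values turned by those dyes; no label was changed. If the ratio ran the other way on every array, each value and its interval would change sign with size and p kept, "lower" would read "higher", and ranks would count from the other end. A reading of the deposited ratio as Cy5 over Cy3 is given beside the results as "turned by the labelled dyes". A replicate value turned in this way depends only on the difference between its 2 arrays, so it lies near 0 wherever they read alike.

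The 2 arrays of a dye swap share their RNA and were averaged to 1 replicate. Calls were made with limma on all 9 replicates together, which share 1 estimate of the spread, at an adjusted p under 0.05 (Benjamini-Hochberg over the 7466 clones). Transcript of o2 itself was below 0 in all 9 replicates and averaged -0.42 (limma adjusted p = 0.015), that of the zein gene z1C1_12 -2.25 (0.00883) and that of the o2 target pdk1, pyruvate orthophosphate dikinase, -1.07 (0.00414). The last 2 are known to depend on o2 and had been looked at in earlier work on the direction, so they are no independent check of it. The o2 transcript does not settle the direction either, because the o2 allele is not given. Of all clones, 5.28% were below 0 in all 9 replicates. z1C1_12 and pdk1 were below 0 on all 18 arrays, so turned by the labelled dyes their arrays would lie on both sides of 0. The median absolute deviation of a replicate's values across clones was 0.128 in both M14 replicate 3 and mixed replicate 3, and between 0.204 and 0.291 in the other 7 replicates.

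Asn1 (LOC606433) was lower in o2 endosperm on 18 of 18 arrays. In B46 its 2 arrays, with wild type on Cy5 and then on Cy3, read -0.93 and -1.12 in replicate 1, -0.73 and -0.61 in replicate 2, and -0.997 and -0.69 in replicate 3. In M14 they read -1.36 and -0.77 in replicate 1, -1.21 and -1.01 in replicate 2, and -0.29 and -0.53 in replicate 3. Every B46 array was below -0.60, while the M14 arrays held both the lowest and the highest value of the 18, the highest in replicate 3. In the mixed pools the arrays read -0.52 and -0.89 in replicate 1, -0.69 and -0.67 in replicate 2, and -0.54 and -0.76 in replicate 3. The 6 arrays of the pools lay inside the range of the M14 arrays.

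Averaged over the dyes, Asn1 stood at -1.03, -0.67 and -0.84 in the B46 replicates, at -1.07, -1.11 and -0.41 in the M14 replicates, and at -0.71, -0.68 and -0.65 in the mixed replicates. The 3 comparisons overlapped, and the mixed replicates lay closest together. The 2 arrays of a pair differed by a mean of 0.251 for this clone, against a median of 0.659 over all clones; 12.03% of clones had a smaller gap. The dyes gave nearly equal means, -0.81 on the 9 arrays with wild type on Cy5 and -0.78 on the 9 with wild type on Cy3.

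**Figure D1:**
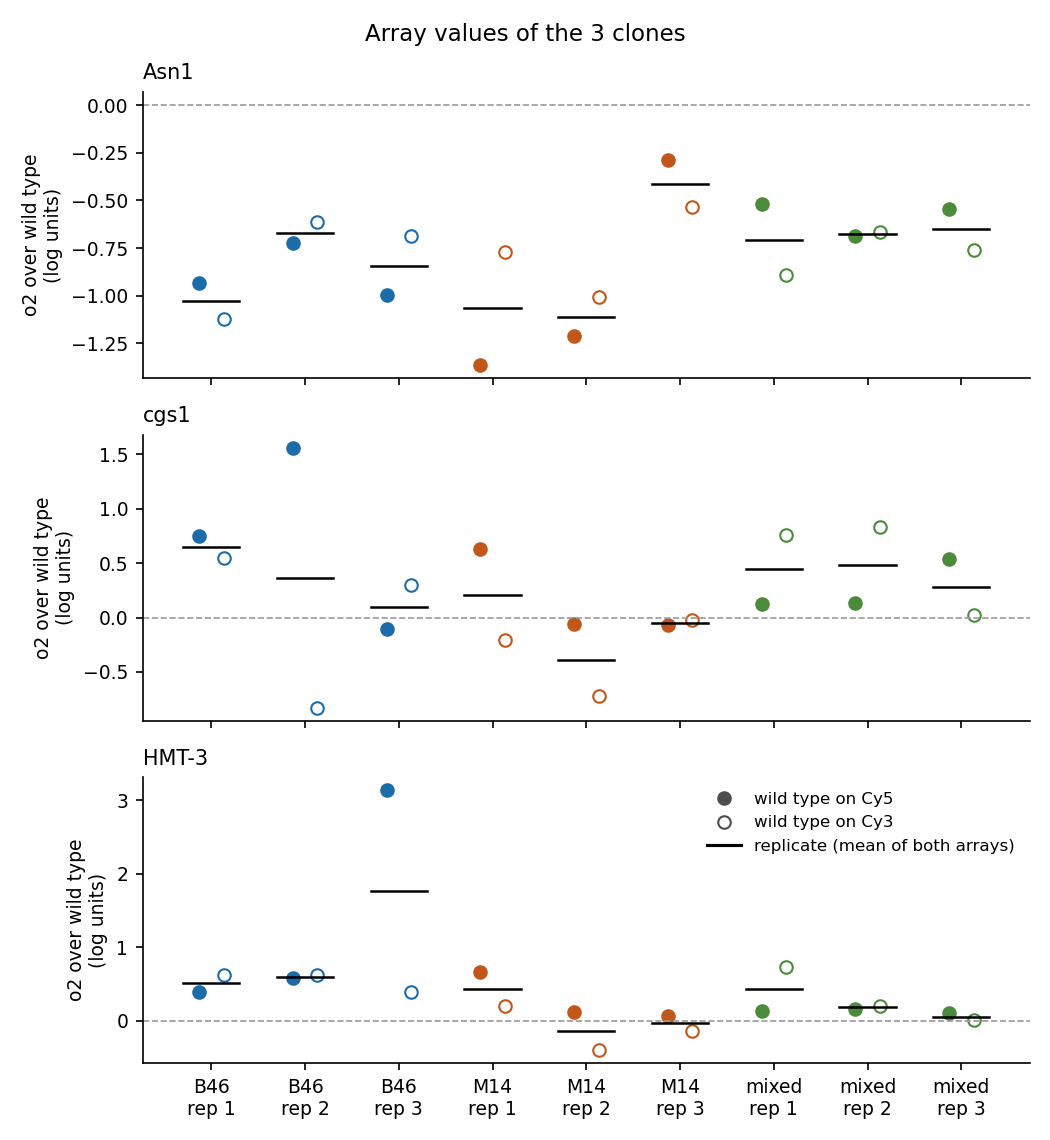
Log ratios of o2 over wild type (vertical axes, log units, with a separate scale for each clone) on the 18 arrays, by replicate and comparison along the horizontal axis; filled points have wild type on Cy5, open points wild type on Cy3, and the bar is the mean of the 2 arrays. All 18 Asn1 points lie below 0, the cgs1 points lie on both sides, and 1 HMT-3 array of B46 replicate 3 stands at 3.14.

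In B46 the mean of Asn1 was -0.85 ± 0.18 (SD, n = 3), 1.80-fold lower in o2 if the logarithm is base 2 and 2.33-fold lower if it is natural. It passed the test (95% interval -1.18 to -0.51, limma unadjusted p = 0.000474, adjusted p = 0.0196). In this comparison 4.57% of clones were called, 3.66% lower in o2 and 0.911% higher, and 1374 clones had an unadjusted p under 0.05. In M14 the mean was -0.86 ± 0.39 (SD, n = 3) with the interval -1.20 to -0.53 and a limma adjusted p of 0.195. In the mixed pools it was -0.68 ± 0.03 (SD, n = 3), with the interval -1.01 to -0.34 and a limma adjusted p of 0.272. No clone was called by limma in M14 or mixed (0% each), where 917 and 693 clones had an unadjusted p under 0.05, Asn1 among them (0.000419 in M14 and 0.00181 in mixed). The call in B46 was lost without B46 replicate 1, 2 or 3 (adjusted p = 0.129, 0.0553 and 0.0801), where it rests on 2 replicates, with the trend and robust options of eBayes (0.0644) and on the B46 replicates alone (0.21). Without M14 replicate 3 the value in M14 was called (-1.09, adjusted p = 0.0335).

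Over the 3 comparisons the average of Asn1 was -0.80 ± 0.083 (SE, 9 replicates), with the interval -0.99 to -0.60 and a limma adjusted p of 0.00427. This is 1.74-fold lower in o2 if the logarithm is base 2 and 2.22-fold lower if it is natural. Of all clones, 6.91% were called in the average, 4.94% lower and 1.97% higher, and 2.50% had a lower average than Asn1. The exact two-sided sign-flip permutation test over the 9 replicates gave p = 0.00391, the smallest it can give with 9 values. The average stayed called when each of the 9 replicates was left out in turn (-0.87 to -0.75, adjusted p between 0.00213 and 0.0233).

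A value below 0 on all 18 arrays was held by 152 clones (2.04%), and a value above 0 on all 18 by 22 (0.295%). Of the 152 clones 6 had a gene name: z1C1_12 (average -2.25), pdk1 (-1.07), Asn1 (-0.80), LOC542547 (-0.70), les22 (-0.69) and bt1 (-0.46), named here after their values were seen. The gene les22 encodes an enzyme of porphyrin synthesis, and bt1 encodes the ADP-glucose transporter of the endosperm plastid envelope. At replicate level, 5.28% of clones were below 0 in all 9 replicates, as Asn1 was.

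With the ratio turned by the labelled dyes, Asn1 lay near 0. This follows from the small gap of its paired arrays, so the turned values are no separate test. If that reading holds, the lower value of Asn1 in o2 is not seen. The 9 replicates then lay between -0.30 and 0.19, 5 below 0 and 4 above, averaging -0.039 for B46, -0.092 for M14 and 0.095 for mixed, with an overall average of -0.012 (limma adjusted p = 0.966, exact sign-flip permutation p = 0.824). On that reading limma called 5 clones in B46 and 0 in the average, with 1098 and 496 clones at an unadjusted p under 0.05.

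The o2 effect on Asn1 was not shown to differ between the comparisons. The B46 minus M14 difference was 0.016 (95% interval -0.46 to 0.49, limma adjusted p = 0.986), B46 minus mixed was -0.17 (-0.64 to 0.31, adjusted p = 0.938) and M14 minus mixed was -0.18 (-0.66 to 0.29, adjusted p = 0.896). Over all clones limma called 0 differences for each pair (0% each), with 733, 394 and 376 clones at an unadjusted p under 0.05 in the same order. With intervals this wide, the lines are not shown to respond alike.

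**Figure D2:**
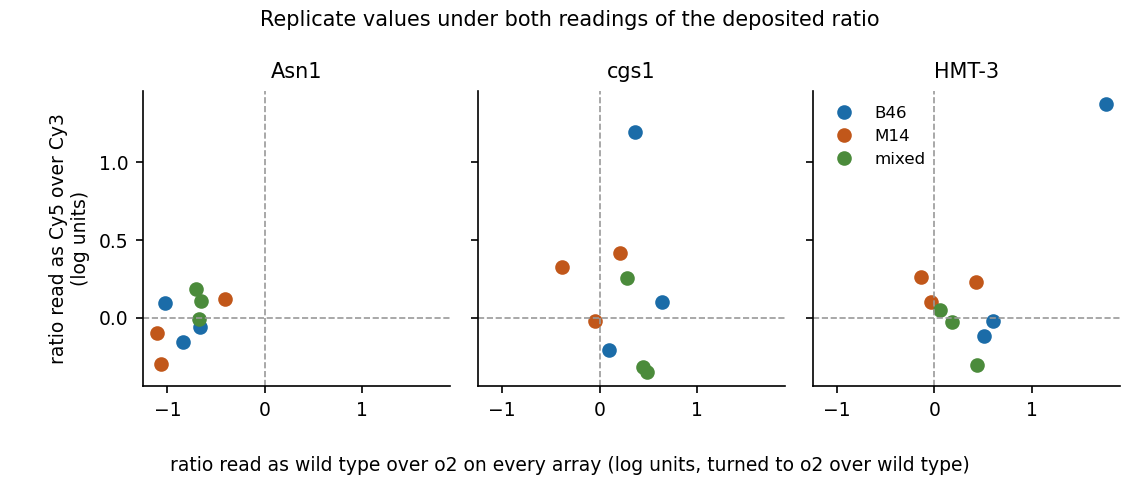
Replicate values of the 3 clones with the deposited ratio taken as wild type over o2 throughout and turned to o2 over wild type (horizontal axis, log units) against the same ratio read as Cy5 over Cy3 (vertical axis, log units); each point is a replicate, coloured by comparison. The Asn1 points lie left of 0 on the first reading and on both sides of 0 on the second, between -0.30 and 0.19.

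cgs1 stood above 0 in the B46 and mixed replicates and near or below 0 in 2 of the 3 M14 replicates, and no comparison passed the test. Its arrays, in the same dye order, read 0.75 and 0.55 in B46 replicate 1, 1.56 and -0.83 in B46 replicate 2, and -0.11 and 0.30 in B46 replicate 3. In M14 they read 0.63 and -0.21 in replicate 1, -0.063 and -0.72 in replicate 2, and -0.068 and -0.025 in replicate 3. The 2 arrays of B46 replicate 2 lay 2.39 log units apart and held both the highest and the lowest value of the clone. In the mixed pools the arrays read 0.13 and 0.76 in replicate 1, 0.13 and 0.83 in replicate 2, and 0.54 and 0.021 in replicate 3. All 6 mixed arrays were above 0, 4 of 6 in B46 and 1 of 6 in M14, which makes 11 of 18.

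The replicate values of cgs1 were 0.65, 0.37 and 0.098 in B46, 0.21, -0.39 and -0.046 in M14, and 0.44, 0.48 and 0.28 in mixed. The mixed replicates all lay above the 3 M14 replicates, as in 5.81% of clones, while the B46 and M14 replicates overlapped. The means were 0.37 ± 0.27 in B46 (limma adjusted p = 0.219), -0.075 ± 0.30 in M14 (0.903) and 0.40 ± 0.11 in mixed (0.442; SD, n = 3 each). Without B46 replicate 1 the value in B46 was 0.23 (adjusted p = 0.628). The average over the comparisons was 0.23 ± 0.082 (SE, 9 replicates; 95% interval 0.041 to 0.42), with a limma adjusted p of 0.154, an unadjusted p of 0.0234 and an exact sign-flip permutation p of 0.0625. It is 1.17-fold higher in o2 for base 2 and 1.26-fold higher for the natural log, and 87.5% of clones had a lower average. Being above 0 in at least 7 of 9 replicates, as cgs1 was, held for 19.9% of clones, and being above 0 in all 3 B46 and all 3 mixed replicates for 8.67%. Turned by the labelled dyes, cgs1 was above 0 in 5 of 9 replicates, with B46 and mixed replicates on both sides of 0, and its mixed and M14 replicates overlapped.

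The differences between comparisons for cgs1 did not pass either. B46 minus M14 was 0.45 (95% interval -0.022 to 0.91, limma adjusted p = 0.523). B46 minus mixed was -0.031 (-0.50 to 0.44, adjusted p = 0.99). M14 minus mixed was -0.48 (-0.94 to -0.0089), which had an unadjusted p of 0.0467 and an adjusted p of 0.86, so that it failed the correction. Turned by the labelled dyes, cgs1 averaged 0.16 (adjusted p = 0.796), with 0.36 in B46, 0.24 in M14 and -0.14 in mixed, so the sign in M14 and in mixed differed between the readings. The turned mixed replicates were -0.31, -0.35 and 0.26, and the 2 below 0 are those with the doubted dye labels.

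HMT-3 was above 0 on 16 of 18 arrays, a number that 2.36% of clones reached, and no comparison passed the test. Turned by the labelled dyes, it was above 0 on 11 of 18 arrays and in 5 of 9 replicates. Its arrays read 0.39 and 0.62 in B46 replicate 1, 0.58 and 0.62 in B46 replicate 2, and 3.14 and 0.39 in B46 replicate 3. The array at 3.14 stood far above the other 5 arrays of B46, which lay between 0.39 and 0.62. In M14 the arrays read 0.66 and 0.20 in replicate 1, 0.12 and -0.40 in replicate 2, and 0.066 and -0.13 in replicate 3. In the mixed pools they read 0.13 and 0.73 in replicate 1, 0.16 and 0.21 in replicate 2, and 0.11 and 0.0071 in replicate 3. The 2 arrays below 0 were both in M14, with wild type on Cy3.

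As replicates, HMT-3 stood at 0.51, 0.60 and 1.76 in B46, at 0.43, -0.14 and -0.034 in M14, and at 0.43, 0.18 and 0.057 in mixed. All 3 B46 replicates lay above the 6 others, as in 2.72% of clones. Turned by the labelled dyes they did not: the B46 replicates were then -0.12, -0.020 and 1.37, of which 2 lay below all 3 of M14 (0.10 to 0.26), and 1.81% of clones had B46 on top. The mean in B46 was 0.96 ± 0.70 (SD, n = 3; 95% interval 0.39 to 1.52), with an unadjusted p of 0.00493 and a limma adjusted p of 0.0781, 1.94-fold higher in o2 for base 2 and 2.60-fold higher for the natural log. That mean turns on 1 array. Without the array at 3.14, a setting chosen after seeing the data, it was 0.50 (adjusted p = 0.0841), and without B46 replicate 3 as a whole 0.55 (0.147). The means in M14 and mixed were 0.085 ± 0.30 (adjusted p = 0.945) and 0.22 ± 0.19 (0.814; SD, n = 3 each).

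The average of HMT-3 was 0.42 ± 0.14 (SE, 9 replicates; 95% interval 0.094 to 0.75), with a limma adjusted p of 0.134 and an exact sign-flip permutation p of 0.0234, and 95.6% of clones had a lower average. Without the array at 3.14 it was 0.27 (adjusted p = 0.0858), and without M14 replicate 1 it was 0.36 (0.272). B46 minus M14 was 0.87 (95% interval 0.069 to 1.67), with an unadjusted p of 0.0369 and a limma adjusted p of 0.474, and it was 0.41 (adjusted p = 0.474) without that array. B46 minus mixed was 0.73 (-0.070 to 1.53, adjusted p = 0.902), and 0.27 (0.84) without that array. Both of these differences use the same B46 replicates. M14 minus mixed was -0.14 (-0.94 to 0.66, adjusted p = 0.974). Turned by the labelled dyes, HMT-3 averaged 0.17 (adjusted p = 0.777), with 0.41 in B46, 0.20 in M14 and -0.092 in mixed (-0.30, -0.025 and 0.050, the first 2 with the doubted dye labels).

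Of the 3 clones, then, 1 was called in the average, lower in o2, where 4.94% of all clones were called lower. The 3 replicate profiles were unlike each other: over the same 9 replicates, which share their arrays, Pearson's r was 0.13 between Asn1 and cgs1, -0.14 between Asn1 and HMT-3, and 0.20 between cgs1 and HMT-3. The genes of the methionine pathway, cgs1 and HMT-3, had averages of 0.23 and 0.42, against a 5th percentile of -0.53 and a 95th percentile of 0.40 over all clones. HMT-3 exceeded the 95th percentile through the array at 3.14: without it the average was 0.27, and turned by the labelled dyes 0.17.

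**Figure D3:**
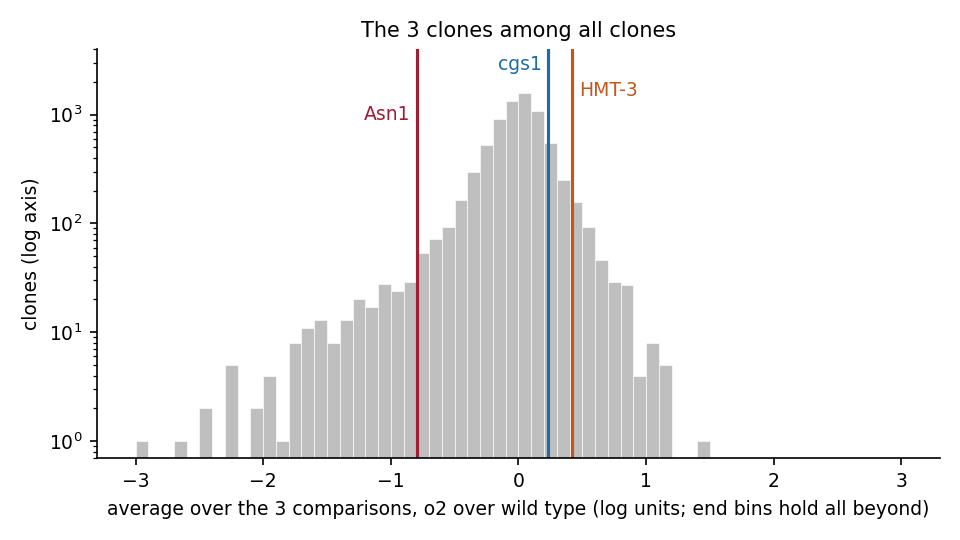
Number of clones (vertical log axis) by their average log ratio of o2 over wild type over the 3 comparisons (horizontal axis, log units), with a vertical line at each of the 3 clones. Asn1 lies at -0.80 in the lower tail, where 2.50% of clones are lower, while cgs1 (0.23) and HMT-3 (0.42) lie on the upper side of the bulk of clones.

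Other genes of methionine and amino acid synthesis came from lists of symbols that also held the members. The list of the aspartate family and methionine matched 3 genes beside cgs1 and HMT-3, of which 0 were called in either direction in any comparison. Over all clones 4.57% were called in B46, 0% in M14 and in mixed, and 6.91% in the average. With shares this low, 0 of 3 genes is no result about the pathway. The median average of these 3 genes was 0.015, against 0.0057 over all clones. HMT-1 and HMT-2, homocysteine methyltransferases like HMT-3, averaged 0.0021 ± 0.075 and 0.28 ± 0.36 (SE, 9 replicates; limma adjusted p = 0.991 and 0.718). The 3 homocysteine methyltransferase clones thus stood at 0.0021, 0.28 and 0.42, none called. The HMT-2 value is loose: its arrays ran from -4.02 to 4.45, and 94.5% of clones had a smaller gap between the arrays of a pair. The other gene, cys2, averaged 0.015 ± 0.43 with arrays from -5.29 to 4.15 (adjusted p = 0.989).

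The list of other amino acid synthesis matched orp1 and orp2, which encode the beta subunit of tryptophan synthase, and 0 of these 2 genes were called. In the average 6.91% of all clones were called, so this count says little about the 2 genes. The clone orp1 averaged -0.18 ± 0.080 (SE, 9 replicates, limma adjusted p = 0.254) and was below 0 in 8 of 9 replicates. Single arrays were less uniform: orp1 was below 0 on 8 of 18, with a median of 0.030 and a lowest value of -1.16. The clone orp2 averaged -0.054 ± 0.087 (limma adjusted p = 0.773) and was below 0 in 4 of 9 replicates. The gene p5cr, which encodes an enzyme of proline synthesis and was added after the gene names were seen, averaged -0.098 (adjusted p = 0.484). The list of nitrogen assimilation, with glutamine and asparagine synthetases and glutamate synthases, matched no clone beyond Asn1 (LOC606433) itself.

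**Figure D4:**
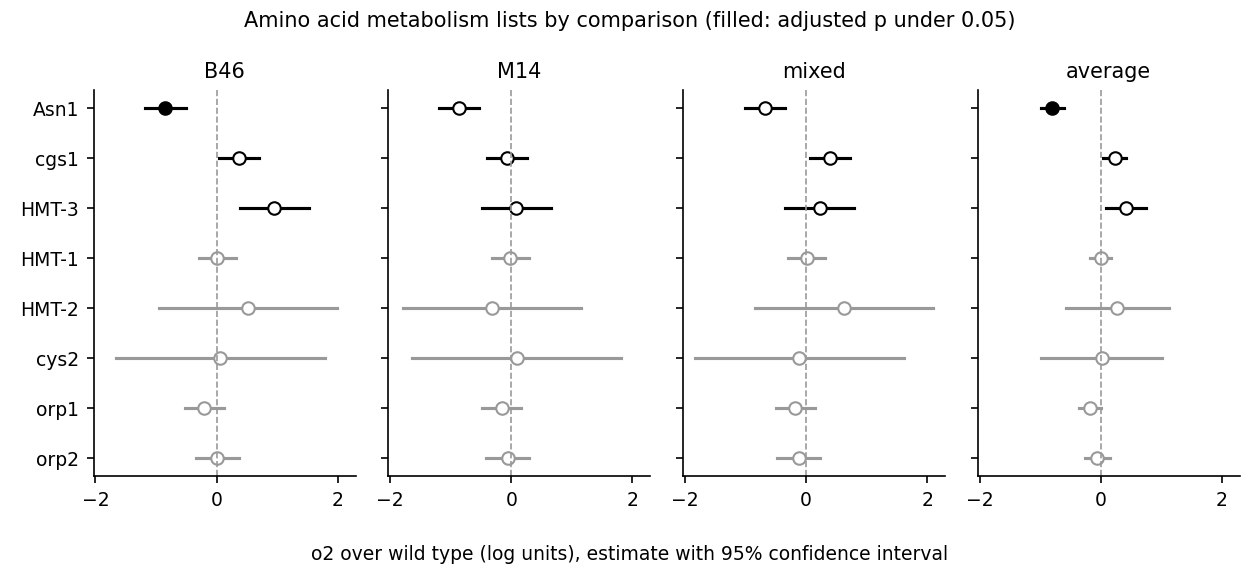
Estimated log ratio of o2 over wild type (horizontal axis, log units) with its 95% interval for the 3 clones (black) and the 5 other genes of the lists (grey), in each comparison and in the average; a filled point has a limma adjusted p under 0.05. The only filled points are Asn1 in B46 (-0.85) and in the average (-0.80), and the intervals of HMT-2 and cys2 are the widest.

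The named genes whose 9 replicate values were nearest to those of a member, by the root mean square difference over 369 other named genes, were as follows. Nearest to Asn1 were hsp22, a small heat shock protein gene, with a difference of 0.295 log units (r = 0.80), lpa1, a low phytic acid gene (0.378, r = 0.40), and les22 (0.392, r = 0.47). These 3 genes averaged -0.71, -0.51 and -0.69. Nearest to cgs1 were phb2, a prohibitin gene (0.198, r = 0.86), the alpha-tubulin gene tua5 (0.214, r = 0.92) and RR4 (0.215, r = 0.86), whose averages of 0.11, 0.065 and 0.081 lay below that of cgs1. Nearest to HMT-3 were pcna1, the gene of a DNA replication clamp (0.331, r = 0.88), GIF3 (0.415, r = 0.81) and GPC1, a cytosolic glyceraldehyde-3-phosphate dehydrogenase gene (0.445, r = 0.60). Each of pcna1, GIF3 and GPC1 stood highest in B46 among the 3 comparisons (0.80, 0.42 and 0.66), as HMT-3 did. Their selection for likeness to HMT-3 favours this pattern. The HMT-3 values used for these distances and r values include the B46 replicate 3 array at 3.14. All these values share the arrays and the dye swaps, and the genes were selected for likeness, so the r values are descriptions.

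Genes that mark parts of the kernel were read on the same arrays, as ratios and not as levels. All 3 endosperm genes (o2, z1C1_12 and dzs18) were below 0 in all 9 replicates, which held for 5.28% of all clones, and 2 of them were called lower in the average (median -0.73), as were 4.94% of all clones. These are o2 itself and zein genes, a class that the o2 protein activates, so they do not measure how much endosperm was sampled. Of 4 basal transfer layer genes, betl2 was called lower in the average (-1.10, limma adjusted p = 0.00551) and MRP1, mn1 and betl4 stood at -0.032, -0.022 and 0.013 (median -0.027). None of 2 embryo genes (ole1 and dhn2, -0.063 and -0.075), 3 aleurone genes (PLTP, Nkd1 and cr4, -0.052 to 0.71) and 2 genes of green tissue (psan1 and lhcb5, -0.0086 and -0.28) was called, and the list of the embryo surrounding region had no named clone. The part of these differences in the value of Asn1 was not tested. In whole endosperm, fewer cells of a type and less RNA per cell cannot be told apart.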

How the data were processed

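Per the labels, spot and background signals were read from the images with ImaGene 4.1. The deposited table holds, per array, a signed score, a log ratio from -9.70 to 11.5 whose base, background correction and normalization are not given in these sources. Of its 16560 rows 14932 have values, 2 identical rows per clone. Array medians were subtracted, signs turned to o2 over wild type, and the 2 arrays of each dye swap averaged. limma 3.58.1 in R 4.3.3 (lmFit, eBayes, a mean per comparison, no covariates; prior degrees of freedom 1.513, residual 6) was fitted to all 7466 clones, after being tested on simulated data. Symbols were updated through a gene table of Zm-B73-REFERENCE-NAM 5.0, which matched 360 of 370 genes; no coordinates or sequences are given. The symbol his1 matched a list only by name (its synonym is that of a histone) and was left out.

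The members and lists were chosen with earlier results of these data known. Named beside the members are the genes of the lists, the 3 named genes nearest to each member, the check genes o2, z1C1_12 and pdk1, and kernel markers. Alternatives changed the centring, scaling, variance model, weights, samples, unit of replication, replicate block, reading of the ratio, clones kept, and the test of the average. Scanner intensities were not used here, so background and saturation were not checked, and precision is limited by how many arrays there are.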

Additional observations from a re-analysis of the deposited data

Results flagged for a closer look

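Among 27 combinations of gene and comparison, each with 6 arrays, 3 had an array far from the other 5 by Dixon's test (the gap to the nearest array over the whole range, at its 95% critical value). By the construction of that value chance marks about 1 group in 20, and the 2 arrays of a pair share their RNA. HMT-3 read 3.14 on the B46 replicate 3 array with wild type on Cy5, against 0.39 to 0.62 on the other B46 arrays. HMT-3 also read 0.73 on the mixed replicate 1 array with wild type on Cy3, against 0.0071 to 0.21 on the other mixed arrays. The tryptophan synthase gene orp1 read -1.16 on the array of M14 replicate 1 that has wild type on Cy3, against -0.23 to 0.24 on the other M14 arrays.

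The cell wall invertase gene mn1, a marker of the basal transfer layer, had replicates all below 0 in M14 (mean -0.22) and all above 0 in mixed (mean 0.36). The mixed replicates were 0.025, 0.13 and 0.92, so their mean rests largely on 1 of them. The share of all clones with such a pattern was not counted. The M14 minus mixed difference of -0.58 had a limma adjusted p of 0.86.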

How the results depend on the processing

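The average of Asn1 kept its sign under all 20 limma alternatives and stayed called under 19. Turned by the labelled dyes, where a value depends only on the difference between paired arrays, Asn1 averaged -0.012 (limma adjusted p = 0.966). Its value in B46 (-0.85, adjusted p = 0.0196) kept its sign under all 21 and stayed called under 14. It was not called with the trend and robust options (-0.85, 0.0644), on the B46 replicates alone (-0.85, 0.21), with the replicate block (-0.85, 0.0508), turned by the labelled dyes (-0.039, 0.891) and without each B46 replicate. In M14 and mixed, Asn1 was called after scaling all arrays to 1 spread (-0.90 and -0.79, adjusted p = 0.0183 and 0.0275) and with all 18 arrays fitted with a dye term and the pair as a random block (-0.86 and -0.68, 0.00142 and 0.00598), where the correlation within a pair was estimated at -0.238. That fit also called HMT-3 in B46 (0.96, 0.013) and in the average (0.42, 0.0497). It took the arrays of a pair, which share their RNA, as separate observations. With a negative correlation, the mean of a pair counts as more precise than that of independent arrays, so the p-values of this fit may be too small. Its dye term also used the labelled dyes, which are in doubt for some of the mixed replicates. The calls that only this fit made are therefore not relied on. The average of cgs1 (0.23) had an unadjusted limma p under 0.05 but 0.0625 in the exact sign-flip permutation test.

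Turned by the labelled dyes, which are in doubt for mixed replicates 1 and 2, the sign changed for Asn1 in mixed (0.095), cgs1 in M14 (0.24) and mixed (-0.14), HMT-3 in mixed (-0.092), and for cgs1 in B46 minus mixed (0.50) and M14 minus mixed (0.38) and HMT-3 in M14 minus mixed (0.29). Of values near 0, B46 minus mixed of Asn1 was 0.051 with scaled arrays; with weights per replicate, B46 minus M14 (-0.14) and M14 minus mixed (0.023) of Asn1 and B46 minus mixed of cgs1 (0.022) changed sign, the last also without the B46 replicate 3 array with wild type on Cy5 (0.037).

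Leaving out each of the 9 replicates in turn gave the following ranges. Asn1 lay between -0.93 and -0.76 in B46, -1.09 and -0.74 in M14, -0.69 and -0.66 in mixed, and -0.87 and -0.75 in the average. B46 minus M14 of Asn1 lay between -0.11 and 0.24, B46 minus mixed of cgs1 between -0.17 and 0.11, cgs1 in M14 between -0.22 and 0.083, and HMT-3 in M14 between -0.087 and 0.20. Values that 1 replicate moved by over 1.5 times, none of them called, were also cgs1 in B46 (0.23 to 0.51) and in B46 minus M14 (0.29 to 0.59), Asn1 in B46 minus mixed (-0.26 to -0.078) and M14 minus mixed (-0.41 to -0.061), and HMT-3 in B46 (0.55 to 1.18), mixed (0.12 to 0.31), B46 minus M14 (0.47 to 1.09), B46 minus mixed (0.33 to 0.96) and M14 minus mixed (-0.31 to -0.026).

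Counts of called clones moved more than the values. B46 had 341 in the fit of all 9 replicates, 159 with the trend and robust options, 0 on its own replicates (limma, with 1032 clones at an unadjusted p under 0.05; no other tool was run over all clones), 692 with all 18 arrays, 185 with the replicate block, 5 turned by the labelled dyes, 188 without replicate 3 of M14 and mixed together, and between 1 and 314 without 1 replicate. The average had 516, but 249 with the trend and robust options, 936 with all 18 arrays, 0 turned by the labelled dyes, 289 without replicate 3 of M14 and mixed together, and between 298 and 499 without 1 replicate; with the block it moved by less than 1.5 times. M14 had 0, but 40 when scaled, 215 with all 18 arrays and between 0 and 44 without 1 replicate; mixed had 0, but 58 when scaled, 193 with all 18 arrays and between 0 and 2 without 1 replicate. Same-numbered replicates correlated at between -0.034 and 0.10 in their deviations over all clones. The labels give no pairing by number, and r values this near 0 cannot exclude one, so the block is given as an alternative. Causes of these moves were not tested.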
